A study of Mus musculus with 12 samples.

Results

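The granzyme, tryptase and chymotrypsinogen genes described here are 5 genes of serine proteases, *Gzme*, *Gzmd*, *Tpsab1*, *Tpsb2* and *Ctrb1*, among the 46983 genes with an FPKM value. They were picked by symbol. *Gzme*, *Tpsab1* and *Ctrb1* were picked because their own levels stood out in an earlier analysis of the same 12 libraries, so their values are given as a description and without a test. *Gzmd* and *Tpsb2* were added as the close relatives of the first 2. RNA was sequenced from C2C12 cells, a mouse skeletal muscle line whose myoblasts fuse into myotubes when they differentiate. The WT cells carried the PB-IP PiggyBac vector by their sample titles and were labelled wild type. The PPARγ/+ cells had received the same vector with the PPARγ coding sequence and were selected with puromycin. Both were collected on day 0 (0d) and day 5 (5d) of differentiation, with 3 libraries in each of the 4 groups WT_0d, WT_5d, PPARγ/+_0d and PPARγ/+_5d. The series text calls the PPARγ cells inducible and the controls uninduced, while the methods describe puromycin-selected cells and no induction step. The replicates are called biological, but it is not stated whether they were separate clones or cultures, so p-values measure the spread between these libraries.

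Each library held 15557951 to 22013361 fragments on genes. *Pparg*, the overexpressed gene, was at 28.0 to 92.7 FPKM in the 6 PPARγ/+ libraries and at 3.12 to 7.56 in the 6 WT libraries, which matches the labels. Of the 8 myotube markers, all rose from 0d to 5d in both cell types, as called below. Of all genes tested 8.94% rose in WT and 9.11% in PPARγ/+ cells. Besides *Myog*, *Acta1* and *Mymk* the markers include *Tnnt3*, at 392 FPKM on average in WT_5d and 79.1 in PPARγ/+_5d, and *Myh3*, at 307 and 49.3. *Acta1* was at 1460 and 684, and *Mymk* at 250 and 119. None of the 8 was called between the cell types on 5d, beside 0.571% of all genes called higher and 0.533% lower. The summed level of these markers was 921 FPKM in WT_5d replicate 3 against 3120 and 4060 in the other WT_5d libraries, and 104 in WT_0d replicate 2 against at most 15.5 in the other WT_0d libraries. These 2 libraries and WT_0d replicate 1 stood apart from their groups for some of the genes below. Changes of *Gzme*, *Tpsab1* and *Ctrb1* are also given without such a library. For the other genes the means and changes hold all libraries. Among those, *Unc13d* was at 1.755 FPKM in WT_5d replicate 3 against 7.26 and 6.83 in the other WT_5d libraries, and *Serpina3n* at 16.0 against 1.29 and 4.92. *C1s1* was at 41.6 FPKM in WT_0d replicate 2 against 15.4 and 15.6 in the other WT_0d libraries.

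Serine proteases of the trypsin family cut proteins with a catalytic serine, and most are made as inactive precursors that a further cut activates. Granzymes are stored in the granules of cytotoxic lymphocytes and enter target cells with the help of perforin. Tryptases are the main proteases of mast cell granules, where they are held on heparin. Chymotrypsinogen B is made by acinar cells of the pancreas and becomes the digestive enzyme chymotrypsin in the gut.

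The stretch around the catalytic serine shows what the 5 genes share. It is given below from the reference transcripts of the mouse genome GRCm38 as 27 coding bases with the serine codon in capitals. In each gene it lies across the border of the last 2 coding exons, with the serine codon in the last.

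Gzme (chr14:56117849-56118256, minus strand, exons 4 and 5 of 5): ttcaagggtgacTCTgggggacccctc
Gzmd (chr14:56129798-56130205, minus strand, exons 4 and 5 of 5): ttcaagggtgacTCGgggggacccctt
Tpsab1 (chr17:25343563-25343661, minus strand, exons 4 and 5 of 5): tgccagggcgacTCCggaggacctctg
Tpsb2 (chr17:25367603-25367702, plus strand, exons 5 and 6 of 6): tgccagggcgatTCAggggggccactg
Ctrb1 (chr8:111686728-111687106, minus strand, exons 6 and 7 of 7): tgcatgggtgacTCTggtggccccctc

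*Gzme* and *Gzmd* lie 8.93 kb apart on chromosome 14 and were 94.8% identical over 744 aligned coding bases. *Tpsab1* and *Tpsb2* lie 20.7 kb apart on chromosome 17 on opposite strands and were 79.9% identical over 812 aligned coding bases. *Tpsab1* is listed as a protein-coding gene in the GENCODE annotation and as a transcribed pseudogene in the RefSeq table. No exon of the 5 genes overlapped an exon of another annotated gene. None of the 817 windows of 100 bases of the *Gzme* transcript occurred in another gene, and for *Gzmd* 2 of 865 did, both in *Gzmg*. With windows of 50 bases 20.6% of those of *Gzme* and 21.9% of those of *Gzmd* were shared with other granzymes, so short fragments of these 2 genes could be exchanged. *Tpsab1*, *Tpsb2* and *Ctrb1* shared no window of either length.

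The 250 bases before the start sites of *Gzme* and *Gzmd* are shown because the 2 genes differed in level while this sequence was nearly the same. They come from RefSeq promoters of GRCm38.p6, which held 3 of the 5 genes, and capitals mark bases that differ between the 2 genes or have no partner in the other.

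Gzme (chr14:56120626-56120875, minus strand): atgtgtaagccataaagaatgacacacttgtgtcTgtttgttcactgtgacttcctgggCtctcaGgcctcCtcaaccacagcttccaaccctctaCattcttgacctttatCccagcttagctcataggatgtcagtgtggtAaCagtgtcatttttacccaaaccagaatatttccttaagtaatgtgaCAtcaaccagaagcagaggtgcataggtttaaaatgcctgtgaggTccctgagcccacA
Gzmd (chr14:56132594-56132843, minus strand): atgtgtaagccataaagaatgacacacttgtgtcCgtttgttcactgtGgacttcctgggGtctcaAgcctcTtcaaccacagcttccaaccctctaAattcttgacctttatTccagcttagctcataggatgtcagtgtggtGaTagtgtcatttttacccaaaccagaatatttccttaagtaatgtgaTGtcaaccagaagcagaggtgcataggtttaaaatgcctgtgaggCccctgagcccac

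These promoters were identical at 238 of 249 aligned bases (95.6%). Both held the letters AGGTCA once when read on both strands, the core of sites bound by nuclear receptors such as PPARγ, at base -148 of *Gzme* and -147 of *Gzmd*. AGGTCA occurred in 14.0% of 32851 promoter windows of this length. A pair of copies of AGGTCA in a row with 1 base N between them, the repeat that PPARγ binds with its partner receptor, occurred in neither, and in 0.0335% of all windows. The promoter of *Ctrb1* is shown because this gene, like the myotube genes, was high on 5d, with the E-box CAGCTG, a form bound by myogenic factors, in capitals.

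Ctrb1 (chr8:111691011-111691260, minus strand): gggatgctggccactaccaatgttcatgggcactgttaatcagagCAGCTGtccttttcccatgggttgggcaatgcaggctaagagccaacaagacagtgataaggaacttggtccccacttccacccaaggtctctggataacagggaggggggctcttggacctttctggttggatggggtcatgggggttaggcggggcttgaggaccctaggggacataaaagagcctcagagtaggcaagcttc

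This letter run began at base -205 and occurred in 13.0% of all windows. Neither AGGTCA nor CAGGTG, the latter found in 17.2% of all windows, occurred in the 250 bases of *Ctrb1*, and neither CAGCTG nor CAGGTG occurred in those of *Gzme* and *Gzmd*. These matches describe letters and say nothing of binding in these cells.

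*Gzme*, which encodes granzyme E, was the gene of the 5 whose level went in opposite directions in the 2 cell types. It is located at chr14:56117626-56120625. FPKM, the fragments on a gene scaled to its transcript length and to the mapped fragments of the library, was 0.503, 0.945 and 0.421 for *Gzme* in the WT_0d libraries and 0.213, 0.112 and 0 in the WT_5d libraries. In PPARγ/+ cells it was 0.932, 0.665 and 1.19 on 0d and 2.66, 3.63 and 4.61 on 5d. The libraries of 5d lay below those of 0d in WT cells and above them in PPARγ/+ cells, without overlap in either, while the 2 cell types overlapped on 0d. These levels rest on few fragments, 40 in the WT_0d libraries together, 7 in WT_5d, 61 in PPARγ/+_0d and 202 in PPARγ/+_5d. The mean FPKM was 0.623 ± 0.282 in WT_0d, 0.108 ± 0.106 in WT_5d, 0.929 ± 0.263 in PPARγ/+_0d and 3.63 ± 0.971 in PPARγ/+_5d (SD, n = 3 each). The mean of PPARγ/+ cells on 5d was 3.91 times that on 0d and 33.5 times that of WT cells on 5d. The size of the second ratio is uncertain. Its WT_5d mean came from 5, 2 and 0 fragments and lay below the level of 3 fragments per library (0.146 FPKM). On the scale of log2(FPKM + 0.1), the fitted change between the days was -1.88 with a standard error (SE) of 0.49 in WT cells, whereas PPARγ/+ cells had 1.86 (SE 0.26), and the difference between these changes was 3.73 (SE 0.58). Without WT_5d replicate 3, where *Gzme* was at 0, the change in WT cells was -1.42 and the difference 3.28.

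**Figure D1:**
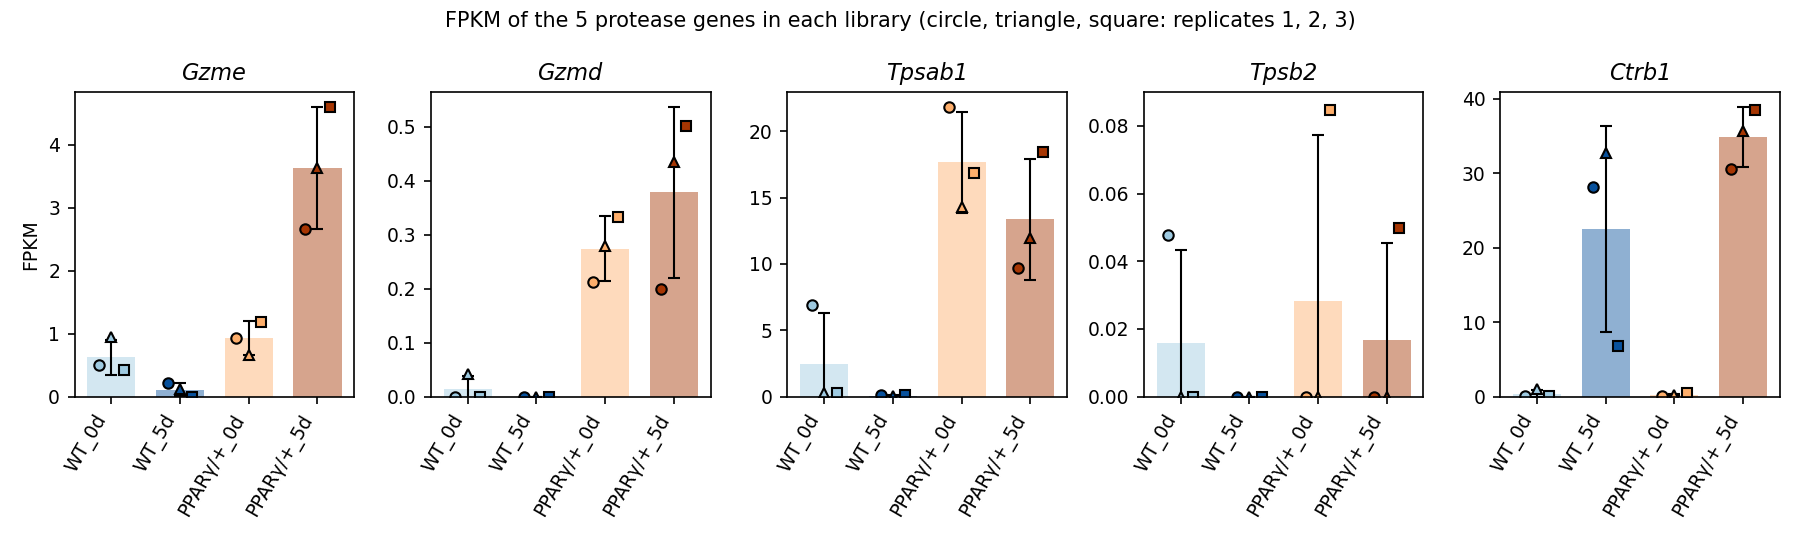
FPKM (vertical axes, each from 0 with its own range) of *Gzme*, *Gzmd*, *Tpsab1*, *Tpsb2* and *Ctrb1* in the 4 groups (horizontal axis). Points are the 3 libraries of a group, bars the mean and error bars the SD. *Gzme* is highest in PPARγ/+_5d (2.66 to 4.61), *Tpsab1* is high in all PPARγ/+ libraries (9.69 to 21.8) and in WT_0d replicate 1 (6.89), and *Ctrb1* is high on 5d in both cell types (6.78 to 38.5).

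*Gzmd*, the gene of granzyme D (chr14:56129556-56132608), was found almost only in PPARγ/+ cells. It was at 0, 0.0411 and 0 FPKM in the WT_0d libraries and at 0 in all WT_5d libraries, which was 1 fragment over the 6 WT libraries. In PPARγ/+ cells it was at 0.212, 0.279 and 0.333 FPKM on 0d and at 0.200, 0.434 and 0.502 on 5d, from 4 to 9 fragments per library. Every PPARγ/+ library lay above every WT library, and the days overlapped within PPARγ/+ cells. Since every WT library was under 3 fragments, a value equal to 3 fragments (0.139 FPKM on 0d, 0.140 on 5d) was used as the floor, and the PPARγ/+ mean was at least 1.97-fold higher on 0d and at least 2.71-fold higher on 5d. The fitted log2 change between the cell types was 1.73 (SE 0.30) on 0d and 2.20 (SE 0.30) on 5d, and 0.33 and 0.46 with 1 in place of 0.1 added to the FPKM. *Gzmd* passed the filter on low values, 0.1 FPKM in 3 libraries, only through its PPARγ/+ libraries, so no p is given for these changes. Within PPARγ/+ cells *Gzmd* was not called from 0d to 5d (0.31, SE 0.31, adjusted p = 0.457 by limma over all 18023 genes tested). *Gzmd* and its neighbour *Gzme* thus had unlike levels in WT_0d, with 1 fragment on *Gzmd* and 40 on *Gzme*, and in PPARγ/+_0d, with 19 and 61.

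*Tpsab1*, a tryptase gene also named *Mcpt7* (chr17:25343245-25345562), was the most abundant of the 5 genes in PPARγ/+ cells on 0d. It was at 21.8, 14.3 and 16.9 FPKM in PPARγ/+_0d and at 9.69, 11.9 and 18.4 in PPARγ/+_5d, from 421 to 1114 fragments per library. In WT cells it was at 6.89, 0.303 and 0.248 FPKM on 0d and at 0.0937, 0.0495 and 0.0839 on 5d. All 6 PPARγ/+ libraries lay above all 6 WT libraries, and the days overlapped within PPARγ/+ cells. WT_0d replicate 1, with 280 fragments, was 25.0 times the mean of the other WT_0d libraries, which had 16 and 12. The mean FPKM was 2.48 ± 3.82 in WT_0d, 0.0757 ± 0.0232 in WT_5d, 17.7 ± 3.8 in PPARγ/+_0d and 13.3 ± 4.54 in PPARγ/+_5d (SD, n = 3 each). On 5d the PPARγ/+ mean was 176 times the WT mean, from 11 fragments in the WT libraries together. On 0d it was 7.12 times the WT mean, and 64.2 times without WT_0d replicate 1. The fitted log2 change between the cell types was 4.14 (SE 0.88) on 0d and 6.21 (SE 0.88) on 5d, and 5.55 on 0d without that library. From 0d to 5d it was -2.51 (SE 1.13) in WT cells, -1.10 without that library, and -0.43 (SE 0.25) in PPARγ/+ cells. The difference between these changes was 2.08 (SE 1.24) with all libraries and 0.67 without it.

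*Fabp4*, *Adipoq* and *Gzmd* were not raised in WT_0d replicate 1. *Fabp4* and *Adipoq*, genes of fat cells that are targets of PPARγ, were at 0.0344 and 0 FPKM in it and at 1.59 to 2.0 and 1.05 to 2.46 in the PPARγ/+_0d libraries. *Gzmd* was at 0 there too. Over all genes tested, 63 were at least 4 times as high (as FPKM + 0.1) in WT_0d replicate 1 as in both other WT_0d libraries, *Tpsab1* among them.

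*Tpsb2*, the tryptase gene also named *Mcpt6* (chr17:25366305-25369098), was close to absent. It had 1 fragment in WT_0d replicate 1 (0.0477 FPKM), 2 in PPARγ/+_0d replicate 3 (0.0847) and 1 in PPARγ/+_5d replicate 3 (0.0498), and 0 in the other 9 libraries. It had too low a level to be tested, and no fold change is given because every group was under 3 fragments per library, equal to 0.116 to 0.125 FPKM. In the same PPARγ/+_0d libraries its relative *Tpsab1* had 771 to 1114 fragments.

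*Ctrb1*, which encodes chymotrypsinogen B (chr8:111686519-111691010), was high on 5d in both cell types. It was at 0.116, 0.983 and 0.0974 FPKM in WT_0d and at 28.1, 32.7 and 6.78 in WT_5d. In PPARγ/+ cells it was at 0.0924, 0.173 and 0.413 on 0d and at 30.5, 35.7 and 38.5 on 5d. The days did not overlap in either cell type, and the cell types overlapped on both days. WT_0d had 2, 22 and 2 fragments and PPARγ/+_0d had 2, 4 and 8, against 137 to 681 in the libraries of 5d. The mean FPKM was 0.399 ± 0.506 in WT_0d, 22.5 ± 13.8 in WT_5d, 0.226 ± 0.167 in PPARγ/+_0d and 34.9 ± 4.05 in PPARγ/+_5d (SD, n = 3 each). WT cells had a ratio of the means of 5d and 0d of 56.4, and PPARγ/+ cells a ratio of 154. Without WT_5d replicate 3 the ratio in WT cells was 76.1, and without WT_0d replicate 2 it was at least 149 against the floor of 3 fragments per library. The fitted log2 change of 5d over 0d amounted to 5.69 (SE 0.85) in WT and to 6.86 (SE 0.34) in PPARγ/+ libraries. Between the cell types it was -0.26 (SE 0.70) on 0d, which turned to 0.54 without WT_0d replicate 2, and 0.91 (SE 0.70) on 5d, which was 0.20 without WT_5d replicate 3.

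Within WT_0d, PPARγ/+_0d and PPARγ/+_5d the 3 libraries had the same order in *Ctrb1* as in *Myog*, the gene of the muscle transcription factor myogenin, and in WT_5d the lowest library was the same. On 0d this order rests on few fragments of *Ctrb1*, with 2 in both WT_0d replicates 1 and 3 and 2, 4 and 8 in PPARγ/+_0d. *Myog* was at 15.7 FPKM in WT_0d replicate 2 against 2.69 and 1.47 in the other WT_0d libraries, where *Ctrb1* in replicate 2 was 9.21 times the mean of the others. In WT_5d replicate 3 *Myog* was at 90.0 FPKM against 271 and 215, and the mean of *Ctrb1* in those 2 libraries was 4.48 times its level in replicate 3. *Ctrb1* and *Myog* were not in the same ratio in all groups. *Ctrb1* was 0.0753 to 0.152 of *Myog* in the WT_5d libraries and 0.387 to 0.426 of it in the PPARγ/+_5d libraries, which did not overlap. On 5d the PPARγ/+ libraries had *Myog* at 78.8 to 90.3 FPKM, near WT_5d replicate 3, and *Ctrb1* at 30.5 to 38.5, near the other WT_5d libraries. *Myog* was not called between the cell types on 5d (-1.03, SE 0.78, adjusted p = 0.58 by limma). In these bulk samples the share of myotubes and the RNA per myotube cannot be told apart.

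**Figure D2:**
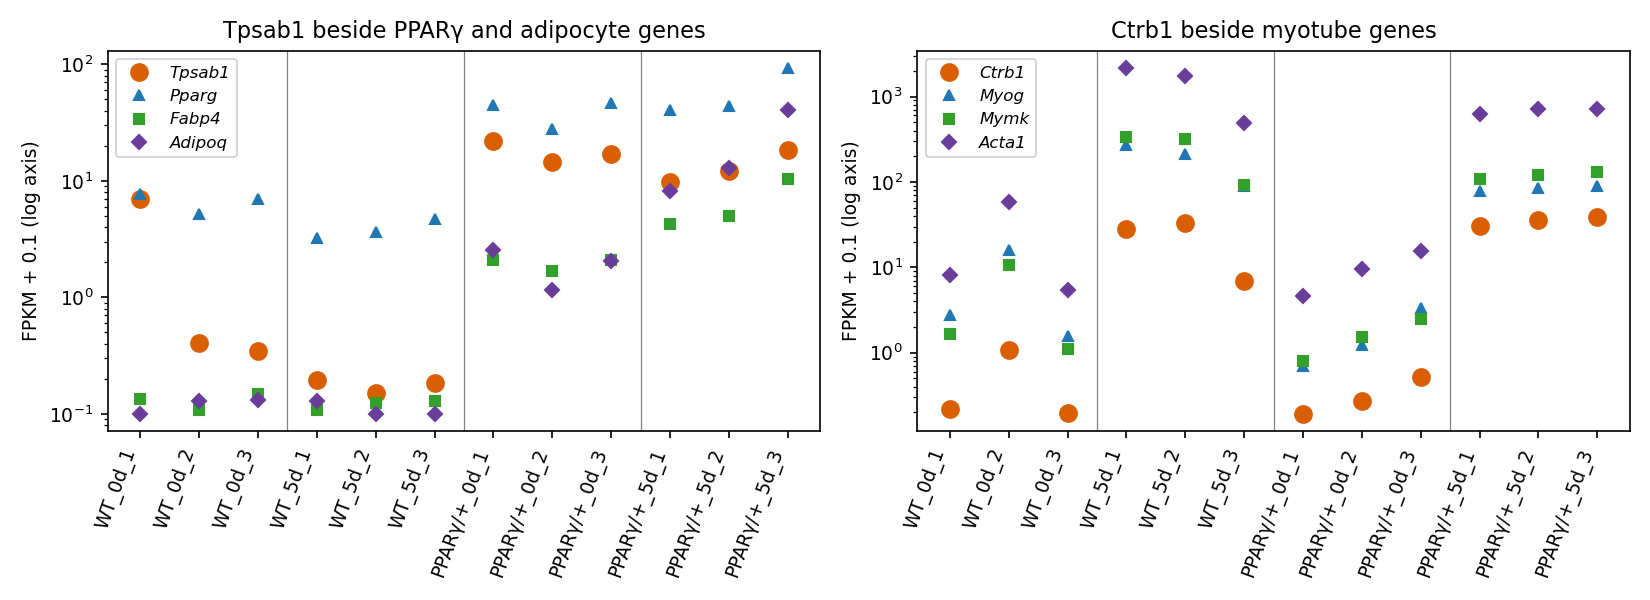
FPKM + 0.1 (log axes) in each of the 12 libraries (horizontal axes, grey lines between groups). On the left *Tpsab1* is shown with *Pparg*, *Fabp4* and *Adipoq*, and in WT_0d replicate 1 *Tpsab1* is at 6.89 FPKM while *Fabp4* is at 0.0344. On the right *Ctrb1* is shown with the myotube genes *Myog*, *Mymk* and *Acta1*, all of which are high on 5d and lower in WT_5d replicate 3 than in the other WT_5d libraries.

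The fitted changes of the 4 genes that could be fitted fell into unlike patterns. *Gzmd* and *Tpsab1* had their largest values between the cell types and *Ctrb1* between the days. *Gzme* had its largest between the cell types on 5d (4.28, SE 0.41), against 0.54 (SE 0.41) on 0d. The medians of all 18023 genes lay between -0.10 and 0.02 in the 5 comparisons. Ordered by mean, *Gzme* was highest in PPARγ/+_5d, then PPARγ/+_0d, WT_0d and WT_5d, where the second and the third overlapped. For *Tpsab1* the 2 PPARγ/+ groups overlapped, and WT_0d and WT_5d followed without overlap. For *Ctrb1* PPARγ/+_5d overlapped WT_5d and WT_0d overlapped PPARγ/+_0d.

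**Figure D3:**
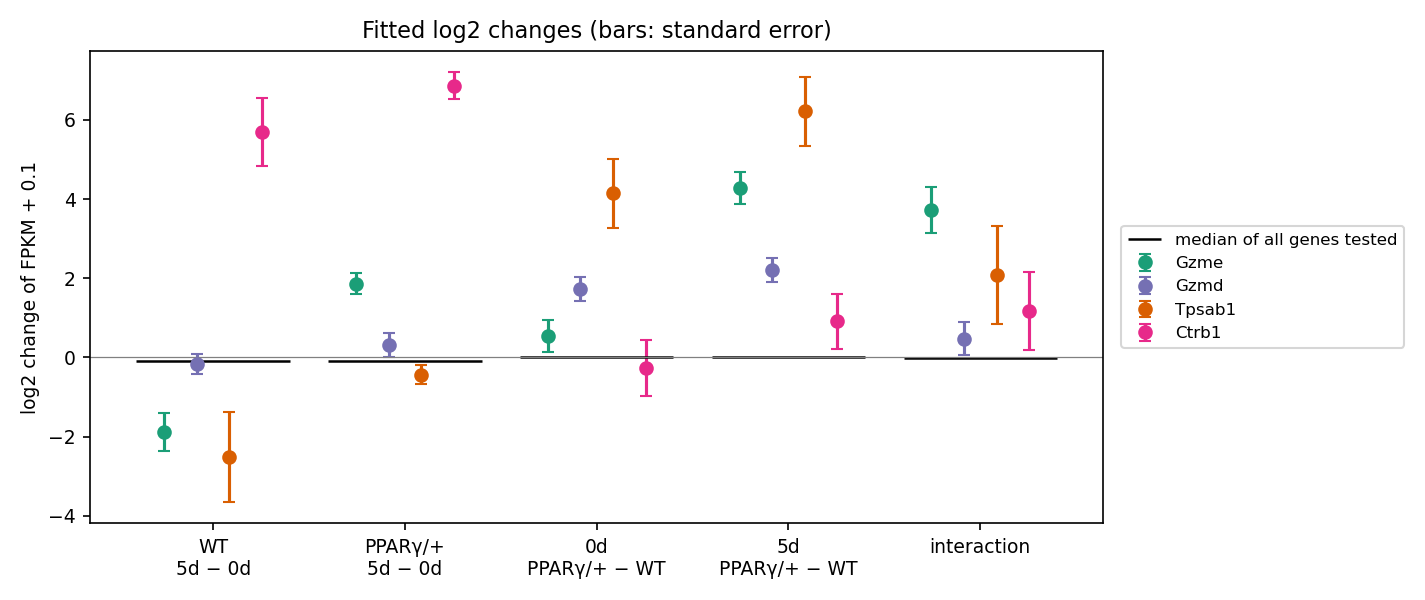
Fitted log2 changes of FPKM + 0.1 (vertical axis) with their standard errors for *Gzme*, *Gzmd*, *Tpsab1* and *Ctrb1* in the 5 comparisons (horizontal axis), with the median of all genes tested as a black line. *Ctrb1* has the changes from 0d to 5d farthest above 0 (5.69 and 6.86), *Tpsab1* the differences between the cell types (4.14 and 6.21), and *Gzme* has changes of opposite sign from 0d to 5d (-1.88 and 1.86).

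Most of the nearest protein-coding genes of *Gzme* and *Tpsab1* were at or near 0, and the 5 tested around *Ctrb1* were called in no comparison. Around *Gzme*, in a cluster of granule proteases, *Gzmg* was at 0 in all libraries, and *Gzmn*, *Ctsg* (cathepsin G) and *Mcpt4* were at group means of at most 0.0296 FPKM and not tested. *Mcpt8*, a basophil protease gene 32.4 kb away, had group means of 0.702 FPKM in WT_0d, 1.82 in WT_5d, 0.0338 in PPARγ/+_0d and 0.455 in PPARγ/+_5d. Genes were called between the cell types where the fold change was 2 or more and the adjusted p 0.05 or less, and of all genes tested 0.571% were called higher and 1.39% lower in PPARγ/+ cells on 0d. *Mcpt8* was lower in them on 0d, by limma with a log2 change of -2.54 (SE 0.53, adjusted p = 0.0196). From 0d to 5d *Mcpt8* rose in PPARγ/+ cells (1.96, SE 0.40, adjusted p = 0.00665 by limma). Few fragments lay behind this, 1, 0 and 1 on 0d and 4, 14 and 6 on 5d. In WT cells its change was 1.09 (SE 0.59, adjusted p = 0.195 by limma), with 2.71, 2.18 and 0.565 FPKM in the WT_5d libraries. The difference between the changes was 0.87 (adjusted p = 0.71 by limma). Around *Tpsab1*, the protease genes *Prss28*, *Prss29* and *Tpsg1* were at 0 in all libraries, and *Prss34*, *Tpsb2* and the calcium channel gene *Cacna1h* were at means of at most 0.0282 FPKM, so that *Tpsab1* was the only gene of these 7 with over 1 FPKM in any group. Around *Ctrb1*, 5 of 6 neighbours were tested and none was called. Between the days 8.94% of all genes rose and 7.53% fell in WT cells, and 9.11% and 6.06% in PPARγ/+ cells. *Bcar1*, an adaptor of focal adhesions 19.5 kb away, was at means of 24.4 to 28.5 FPKM, and *Zfp1*, 15.5 kb away on the other side, at 5.76 to 6.46. *Cfdp1* was at 39.3 to 57.6, *Znrf1* at 3.97 to 4.96 and *Tmem170* at 1.02 to 1.23, and *Ldhd*, at no more than 0.0191, was not tested. *Cfdp1* was lower on 5d than on 0d in both cell types, by less than a fold change of 2. Its log2 change was -0.55 in WT cells (adjusted p = 0.00116 by limma) and -0.36 in PPARγ/+ cells (adjusted p = 0.00283 by limma).

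**Figure D4:**
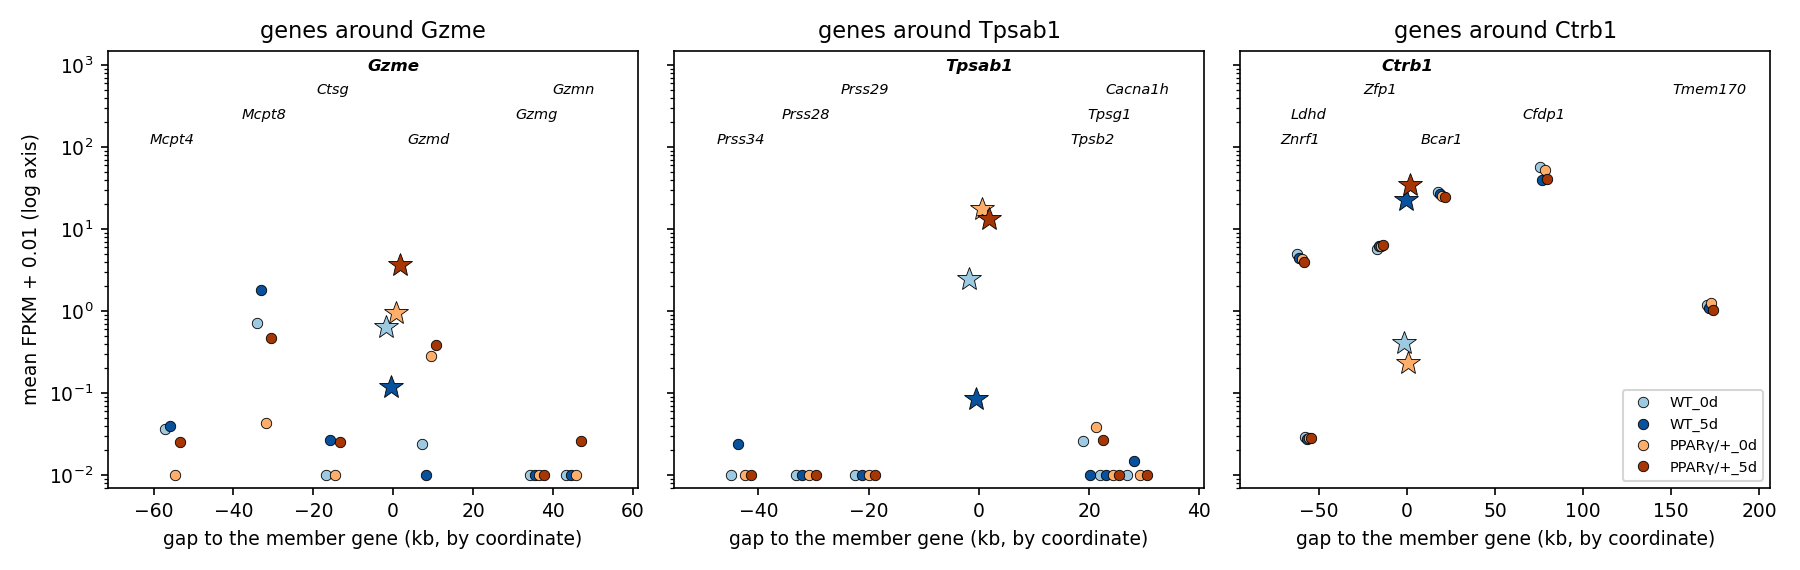
Mean FPKM + 0.01 (log axis) of the 3 nearest protein-coding genes on each side of *Gzme*, *Tpsab1* and *Ctrb1* (stars), by the gap in kb. Colours mark the 4 groups, which are set slightly apart along the horizontal axis. *Tpsab1* reaches 17.7 FPKM among neighbours at 0.0282 or less, and *Ctrb1* spans 0.226 to 34.9 FPKM while *Bcar1* stays at 24.4 to 28.5.

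The genes most like each of the 4 in level over the 12 libraries were found by Pearson's r of log2(FPKM + 0.1) among some 12399 genes with a mean of at least 1 FPKM in a group. These r are descriptions over 12 libraries that share the 4 groups. For *Gzmd* they were *Fabp4* (r = 0.963), *Pparg* (0.954) and *Adipoq* (0.941), and for *Tpsab1* they were *Pparg* (0.920), *Tmem185a* (0.903) and *Lims2* (0.900). *Gzme* was most like *Hrct1* (0.931), *Lpl* (0.893), the lipoprotein lipase of fat and muscle, and *Prg4* (0.886), which encodes lubricin. *Lpl* had group means of 5.88 and 4.89 FPKM in WT_0d and WT_5d and of 10.3 and 40.1 in PPARγ/+_0d and PPARγ/+_5d. *Ctrb1* was most like *Rrad* (0.992), *Col3a1* (0.991), a collagen gene with group means of 197 to 212 FPKM on 0d and 808 to 885 on 5d, and *Abca8a* (0.987). With *Myog* it had r = 0.958 and with *Pparg* r = 0.00779.

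The other trypsin-like serine proteases were read as a background for the 5 genes. By their symbols 154 further genes were taken, of which 114 were above 0 in some library and 42 could be tested. Between the days genes were called where the fold change was 2 or more and the unadjusted p 0.05 or less. In WT cells 16 of the 42 rose and 2 fell, where 8.94% of all genes tested rose and 7.53% fell, and their median log2 change was 0.57 against -0.08 for all genes. In PPARγ/+ cells 19 rose and 2 fell, where 9.11% rose and 6.06% fell, with a median of 0.93 against -0.10. The most abundant of those called were proteases of complement and of the extracellular space, which were far above the 5 genes in level. *C1s1*, which encodes a protease of the first complement component, had means of 24.2 FPKM in WT_0d, 177 in WT_5d, 48.0 in PPARγ/+_0d and 238 in PPARγ/+_5d, with log2 changes of 2.93 (SE 0.49) and 2.35 (SE 0.21). Its partner *C1ra* rose by 2.32 and 2.04, *Masp1* of the lectin pathway by 1.67 and 1.89, and the secreted protease *Htra1* by 1.60 and 1.68 in WT and PPARγ/+ cells. Of those that rose, 4 in WT cells and 4 in PPARγ/+ cells reached 0.1 FPKM in no library of 0d, so they passed the filter only through the higher day. *Prss16*, taken by its symbol although it belongs to another peptidase family, was 1 of the 2 that fell in each cell type. Of those that fell, 1 in WT cells and 2 in PPARγ/+ cells reached 0.1 FPKM in no library of 5d, *Prss16* among them. These too passed the filter only through the higher day.

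Between the cell types few of these proteases were called. On 0d 1 was higher and 2 were lower of 42, beside 0.571% and 1.39% of all genes. The lower ones were *Mcpt8* and *Plau*, the urokinase gene, with a log2 change of -1.77 (SE 0.27, adjusted p = 0.0054 by limma). The higher one was the kallikrein gene *Klk6* (1.32, SE 0.32), which passed the filter only through PPARγ/+ libraries. On 5d *Tmprss11f*, a membrane-bound serine protease gene, was called higher (1.89, SE 0.20, adjusted p = 0.00137 by limma), which is 1 of 42 beside 0.571% of all genes, and none was lower, beside 0.533%. Without WT_5d replicate 3, 7 of them were called on 5d. Then 796 of all 18023 genes were called, against 103 higher and 96 lower with all libraries. *Tmprss11f* was also the only one of the 42 with a called interaction of cell type and day. Its FPKM was 0.348, 0.297 and 0.317 in WT_0d and 0.0288, 0.0381 and 0.0258 in WT_5d, and 0.229, 0.220 and 0.357 in PPARγ/+_0d and 0.404, 0.355 and 0.395 in PPARγ/+_5d. It fell in WT cells by 1.68 on the log2 scale, and in PPARγ/+ cells its change was 0.41 (SE 0.21, adjusted p = 0.154 by limma). The difference was 2.10 (SE 0.29, adjusted p = 0.011 by limma), where 0.583% of all genes had a called positive difference and 0.178% a negative one.

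Among relatives of the 5 genes by function, most were at or near 0. Of the other 8 granzymes 3 were at 0 in all libraries, and *Gzmm* was the only one tested, at 0.393 to 0.996 FPKM and called in no comparison. *Gzmb*, the best known granzyme, was above 0 in 6 libraries and at most at 0.122 FPKM. Of 13 further mast cell and myeloid granule proteases 11 were above 0 and 2 were tested, of which *Mcpt8* was called as given above. Of 23 further pancreatic digestive enzymes 10 were at 0 in all libraries and 5 were tested. In PPARγ/+ cells 2 of the 5 were called higher on 5d than on 0d and 1 lower, beside 9.11% and 6.06% of all genes. These were *Cpa1*, the carboxypeptidase A1 gene, *Try5* and *Prss2*, all under 1 FPKM, and *Cpa1* and *Try5* passed the filter only through the PPARγ/+_5d libraries, so no p is given for them. *Prss2* reached 0.1 FPKM only on 0d. *Cpa1* was at 0 in all 6 libraries of 0d and at 0.331, 0.319 and 0.861 FPKM in PPARγ/+_5d, against 0, 0.0888 and 0 in WT_5d. In WT cells, where *Ctrb1* was at up to 32.7 FPKM on 5d, none of these 5 was called from 0d to 5d, beside 8.94% and 7.53% of all genes. There *Prss2* was lower on 5d by -0.98 (SE 0.29) on the log2 scale, just under the fold limit, from 9 fragments on 0d and 2 on 5d. The elastase gene *Cela1* was at 7.62 to 12.2 FPKM in all libraries.

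Of the genes that activate and store granule proteases 16 were tested. In WT cells 1 rose from 0d to 5d and none fell, beside 8.94% and 7.53% of all genes. In PPARγ/+ cells 3 rose and 1 fell, beside 9.11% and 6.06%. Their median log2 change was 0.25 in WT cells, where the median of all genes was -0.08, and 0.21 in PPARγ/+ cells, where it was -0.10. *Ctsc*, whose product cathepsin C activates granzymes, was at most at 0.0536 FPKM. *Unc13d*, which primes granule release, rose in both cell types, with means of 0.347 FPKM in WT_0d and 5.28 in WT_5d and log2 changes of 3.36 and 2.27. In PPARγ/+ cells *Srgn*, the granule proteoglycan serglycin, rose by 1.23 and *Ext1* of heparan sulfate synthesis by 1.25, while *Rab27a* of granule docking fell by 1.12 on the log2 scale. None of the 16 was called between the cell types on 0d, beside 0.571% of all genes called higher and 1.39% lower. On 5d none was called either, beside 0.571% and 0.533%. *Ext1* was lower in PPARγ/+ cells on 0d by less than a fold change of 2 (-0.80, SE 0.18, adjusted p = 0.0287 by limma).

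Among inhibitors of serine proteases, several were higher in PPARγ/+ cells. Of 19 tested, 4 were higher in PPARγ/+ cells on 0d and 2 on 5d and none was lower, beside 0.571% of all genes called higher on each day. *Serpinb9e*, a relative of the granzyme B inhibitor *Serpinb9*, was at 0.227 to 0.405 FPKM in WT_0d and 8.13 to 11.8 in PPARγ/+_0d (4.58, SE 0.43, adjusted p = 0.000354 by limma), and on 5d the log2 change was 3.99 (SE 0.43). The other 3 on 0d were *Serpinb9c*, *Serpinb9f* and *Serpinb9g*, with log2 changes of 1.61, 2.20 and 3.35. These genes form a cluster of near copies, and fragments may be split among them. From 0d to 5d 6 of the 19 rose and 1 fell in WT cells, and 5 rose and 1 fell in PPARγ/+ cells, beside 8.94% and 7.53% of all genes in WT and 9.11% and 6.06% in PPARγ/+ cells. *Serpina3n*, a secreted inhibitor, rose by 3.08 (SE 0.94) and 2.09 (SE 0.18), and *Serpinb6b* rose in PPARγ/+ cells by 1.05 (SE 0.22). *Serpinb9* itself was at 6.49 to 11 FPKM and was not called in any comparison. *Serpinb9b* fell from 26.0 to 5.83 FPKM on average in WT cells (-2.19, SE 0.27) and was at 18.4 and 21.8 in PPARγ/+ cells (0.23, SE 0.15). The difference between these changes was 2.42 (SE 0.33, adjusted p = 0.011 by limma).

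Markers of the cells that are the usual source of these proteases were low. Of 12 markers of cytotoxic lymphocytes, *Nkg7* and *Klrb1c* were at 0 in all libraries, the perforin gene *Prf1* was above 0 in 4 and at most at 0.0252 FPKM, and the leukocyte gene *Ptprc* was at most at 0.00649. Their summed level was 0.235 to 0.486 FPKM in WT_0d, 0.233 to 0.803 in WT_5d, 0.439 to 0.690 in PPARγ/+_0d and 0.564 to 0.930 in PPARγ/+_5d, of which 94.0% was *Ccl5*. Only 1 of the 12, *Ccl5*, had a level high enough to be tested, and it was called in no comparison. Of 13 mast cell markers, *Kit*, *Fcer1a*, *Mrgprb1* and *Mrgprb2* were at 0 in all libraries and *Cpa3* was above 0 in 1. Their sum was 5.68 to 6.32 FPKM in WT_0d, 4.64 to 5.43 in WT_5d, 4.63 to 6.40 in PPARγ/+_0d and 4.82 to 5.48 in PPARγ/+_5d, of which 82.1% was *Gata2*, a transcription factor that other cells also express. Of the 4 mast cell markers tested, only the histidine decarboxylase gene *Hdc* was called. It rose from 0d to 5d in PPARγ/+ cells (1.40 on the log2 scale), where 9.11% of all genes rose. Its mean FPKM was 0.196 in PPARγ/+_0d and 0.682 in PPARγ/+_5d, against 0.768 in WT_0d and 0.856 in WT_5d. Between the cell types it was not called on either day. Of 12 markers of pancreatic acinar cells 5 were at 0 in all libraries, among them the transcription factor gene *Ptf1a*, and 3 were tested. Of these only *Cpa1* was called, from 0d to 5d in PPARγ/+ cells (2.48, SE 0.36) and between the cell types on 5d (2.17, SE 0.36). The shares of all genes called higher were 9.11% and 0.571%. As given above, *Cpa1* passed the filter only through the PPARγ/+_5d libraries, so its changes are a description. The sum of the 12 acinar markers, 62.4% of which was *Cela1*, was 12.4 to 15.3 FPKM in WT_5d and 14.0 to 17.6 in PPARγ/+_5d against 15.5 to 17.5 and 16.4 to 18.1 on 0d. Of 8 macrophage markers 3 were tested. Of these 1, *Lyz2*, rose from 0d to 5d in each cell type, beside 8.94% of all genes in WT and 9.11% in PPARγ/+ cells. The level of *Lyz2* was at most 4.61 FPKM, and the sum of the 8 was 3.02 to 8.23 FPKM in WT libraries and 6.14 to 7.56 in PPARγ/+ libraries. Of 7 markers of fat cells 1 was at 0 in all libraries. Several of the others moved with the cell type and, in PPARγ/+ cells, with the day. Of 6 tested, 2 were higher in PPARγ/+ cells on 0d and 4 on 5d, beside 0.571% of all genes on each day, and 4 were higher on 5d than on 0d in PPARγ/+ cells, beside 9.11%. All of those called passed the filter only through PPARγ/+ libraries. *Cfd*, the adipsin gene, had means of 0.0738 FPKM in PPARγ/+_0d and 4.57 in PPARγ/+_5d, and *Plin1* of lipid droplets 0.11 and 1.45. The summed level of the list was 6.55 to 9.19 FPKM in WT_0d, 8.42 to 14.1 in WT_5d, 13.0 to 14.3 in PPARγ/+_0d and 30.5 to 89.8 in PPARγ/+_5d. Over all libraries 56.3% of this sum was *Cebpa*, at 6.47 to 22.6 FPKM, which was called in no comparison. The part of fat-like cells in the levels of *Gzme*, *Gzmd* and *Tpsab1* was not tested.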

How the data were processed

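RNA of 12 libraries was sequenced in pairs on an Illumina HiSeq. After trimming by Trim Galore, reads were mapped by STAR to GRCm38 according to the study's methods, while the submitters' processing notes list mm9. HTSeq gave counts per Ensembl gene, from which the authors deposited FPKM, the unit used here. A further deposited table, named as holding log2 FPKM, was not used. Gene positions are those of GENCODE M21 on GRCm38. The counting settings for strand and for reads shared by genes are not given in the sources used here.

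Whole fragments were recovered from the FPKM for all 27138 genes above 0, within 0.01 of a whole number, with the annotated length for 21224 and an inferred length for 5914. They give the depth and the floor of 3 fragments, which covers counting error only. log2(FPKM + 0.1) of the 18023 genes with at least 0.1 FPKM in at least 3 libraries was fitted with limma 3.58.1 in R 4.3.3 (empirical Bayes with a trend). The days were compared on the 6 libraries of a cell type (unadjusted p of at most 0.05, fold change of at least 2), and the cell types and the interaction on all 12 (Benjamini-Hochberg adjusted p of at most 0.05, and for the cell types a fold change of at least 2). The fits were tested on simulated data.

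The 5 genes, the gene lists and the tests were chosen with earlier results of these data known. Named genes are the 5 genes, from each list at most 4 called genes by highest group mean (or the most abundant if none was called), 3 neighbours on each side, the 3 genes most like each of the 4 that were fitted, and *Pparg* and *Myog*. A gene of the inhibitor list is not reported here. Others, such as *Tmprss11f*, *Klk6*, *Plau*, *Serpinb9* and its relatives and markers at 0, were named after their values were seen. Alternatives were other pseudocounts (1, 0.01), filters (none, 1 FPKM), median-ratio scaling, quantile normalization, limma voom on recovered fragments, a replicate block, all 12 libraries in one fit, adjusted p for the days, and leaving out each library. Python 3.11.15, numpy 2.4.6, pandas 2.3.3 and matplotlib 3.10.9 were used.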

Additional observations from a re-analysis of the deposited data

Results flagged for a closer look

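The time course of 3 genes was unlike in WT and PPARγ/+ cells. *Gzme* lay lower on 5d in WT cells and higher on 5d in PPARγ/+ cells in every library, with a difference of 3.73 on the log2 scale that was not tested here because the gene was picked for this pattern. The difference was 2.10 for the protease gene *Tmprss11f* and 2.42 for *Serpinb9b*, each tested as an interaction of cell type and day and called by limma, and chosen because they passed that test. All 3 were lower on 5d than on 0d in WT cells. Groups of 3 libraries are too small for a test of single outlying libraries.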

How the results depend on the processing

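The log2 changes of the 4 fitted genes in the 5 comparisons were recomputed under 355 alternatives, of which 335 kept the side of the threshold or moved by less than the spread between libraries, and 352 kept their sign. The changes of *Gzmd* between the cell types were under a fold change of 2 with a pseudocount of 1 (0.33 on 0d and 0.46 on 5d), and a filter at 1 FPKM leaves the gene out. The size of the changes of *Gzme*, *Tpsab1* and *Ctrb1* depends on the pseudocount, since each is near 0 in at least 1 group. The difference of *Gzme* between the cell types in their day changes was 1.79 with a pseudocount of 1 and 5.16 with 0.01. The difference of *Tpsab1* was 0.67 without WT_0d replicate 1.

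Of the 42 other proteases, 9 were called between the days in WT and 10 in PPARγ/+ libraries with a pseudocount of 1, and 10 and 13 with a filter at 1 FPKM, against 18 and 21. Over all genes, 1441 and 1241 were called with that pseudocount, and 1997 and 1806 of 12290 with that filter. With the main settings, 1612 rose and 1358 fell in WT, and 1642 and 1093 in PPARγ/+ libraries. On 0d 1 was called between the cell types with a pseudocount of 1, against 3. Of all genes 120 were called with it, against 103 higher and 250 lower. On 5d 0 were called with a pseudocount of 1 or a filter at 1 FPKM and 2 with 0.01, against 1, and in the interaction 0 with the filter at 1 FPKM, against 1. Of all genes 95, 93 and 142 were called on 5d in these settings, against 103 higher and 96 lower. In the interaction 103 of all genes were called with that filter, against 105 higher and 32 lower. Leaving out 1 library gave 17 to 22 and 18 to 23 between the days, 1 to 4 on 0d, 1 to 7 on 5d and 1 to 2 in the interaction. On 0d, 1 was called without WT_0d replicate 3 or PPARγ/+_0d replicate 3, where 254 and 226 of all genes were called. On 5d, 7 were called without WT_5d replicate 3, 3 without PPARγ/+_5d replicate 1 and 2 without PPARγ/+_5d replicate 3. Of all genes 796, 108 and 78 were called in these fits. In the interaction, 2 were called without WT_5d replicate 1 or 3, where 153 and 527 of all genes were called. The filter leaves fewer genes, and for the other changes the cause was not tested.

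Median-ratio scaling moved the median of all genes from -0.08 to 0.02 in WT cells and from -0.10 to 0.02 in PPARγ/+ cells between the days. Libraries with the same replicate number did not deviate together (r of -0.0678 to 0.0834 over 18 pairs), and with the replicate number as a block 18, 21, 3, 1 and 1 of the other proteases were called in the 5 comparisons, as without it. Levels under 3 fragments, as for *Tpsb2*, for *Gzmd* in WT cells and for *Gzme* in WT_5d replicates 2 and 3, cannot be told from 0 at this depth.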
